A study of Mus musculus with 6 samples.

Results

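Phospholipid flippases of the P4-ATPase family were followed in ribosome-bound mRNA of the mouse choroid plexus (ChP), the epithelium that makes cerebrospinal fluid. The genes were taken by symbol: Atp8a1, Atp8a2, Atp8b1, Atp8b2, Atp9a, Atp9b, Atp10a, Atp10d and Atp11a, which are 9 of the 24354 genes in the expression table. Levels are FPKM, fragment numbers divided by transcript length and library size, so they can be set side by side between genes.

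The 6 samples came from ChP of FoxJ1:cre mice crossed with bacTRAP (EGFP:L10a) mice, 3 labelled adult at 60 days and 3 labelled embryo at E16.5, with the same cross at both ages. In TRAP (translating ribosome affinity purification) the EGFP tag on ribosomal protein L10a is used to pull down ribosomes with the mRNA they hold, here from cells in which Cre under the Foxj1 promoter has been active. By the study's methods a sample was a pool of lateral ventricle ChP from 3 mice or 3 litters, whereas the series description gives 3 mice per age, and no source used here ties a replicate to single animals, sexes or dates. The p-values below therefore measure only the spread between these samples.

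P4-ATPases use ATP to move phospholipids from the outer (or lumenal) leaflet of a membrane to its cytosolic leaflet. They keep phosphatidylserine and phosphatidylethanolamine on the cytosolic side, and they help membranes to bend during vesicle budding. Most of them leave the endoplasmic reticulum only in complex with a CDC50 subunit (Tmem30a, Tmem30b or Tmem30c), while Atp9a and Atp9b do without it. Scramblases work against flippases by letting phospholipids pass both ways, and phosphatidylserine that has reached the outside is recognised by phagocytes.

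All P-type ATPases form a phosphorylated aspartate during each cycle of ATP use, inside a motif of 7 residues that is shared across the superfamily. The codons of that motif were read from the GENCODE transcripts of mm10 for 7 of the 9 members and are shown because they encode the residue on which the ATP-driven transport turns. The motifs of Atp8b1 and Atp9b were found as well and are named only. In each line the 21 bases of the motif are in capitals and 12 coding bases on either side are in lower case, from 5′ to 3′ on the coding strand.
Atp8a1: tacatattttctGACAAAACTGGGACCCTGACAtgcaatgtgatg
Atp8a2: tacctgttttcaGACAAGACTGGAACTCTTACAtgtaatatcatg
Atp8b2: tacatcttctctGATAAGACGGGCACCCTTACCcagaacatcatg
Atp9a: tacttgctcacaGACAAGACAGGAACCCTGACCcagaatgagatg
Atp10a: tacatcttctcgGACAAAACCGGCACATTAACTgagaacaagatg
Atp10d: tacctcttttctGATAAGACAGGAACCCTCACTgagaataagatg
Atp11a: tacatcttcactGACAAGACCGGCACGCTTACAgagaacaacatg

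Each of the 15 P4-ATPase genes of the mouse held this motif once in frame in its transcript with the longest coding part, between codon 388 (Atp8a2) and codon 491 (Atp10d). Among the 13 genes whose motif was compared, any pair had 14 to 19 of the 21 bases in common. In Atp11a (chromosome 8, 12757014 to 12868728, plus strand) the motif lies in exon 13, at chr8:12831103-12831123. In Atp9a (chromosome 2, 168634438 to 168742409, minus strand) its bases are split between exons 12 and 13.

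Atp10d (chromosome 5, 72203329 to 72298775, plus strand) differs from the other 14 genes in the reference genome. GENCODE lists it as a polymorphic pseudogene, since its reading frame holds a stop codon at codon 817 of 1469, in exon 12 at chr5:72264471-72264473. The stop codon is in capitals below, with 18 coding bases before and after it.
Atp10d stop: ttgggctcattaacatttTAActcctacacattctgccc
The catalytic motif lies before this stop. None of the other 14 coding sequences had a stop codon before its end. The mm10 reference is of C57BL/6J, and the strain of the TRAP mice is not given in the sources used here, so the FPKM of Atp10d measure its mRNA and say nothing of its protein.

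In the levels, 5 of the 9 members were above 0 in all 6 samples (Atp8b2, Atp9a, Atp9b, Atp10d and Atp11a), Atp8a1 and Atp8a2 were above 0 in 3 and 4 samples, and Atp8b1 and Atp10a were listed at 0 in all. The other 7 members averaged more than 1 FPKM and so entered the test. Adult ChP ordered them as Atp11a, Atp9a, Atp10d, Atp8b2, Atp9b, Atp8a1 and Atp8a2 by mean FPKM. At E16.5 the order was Atp9a, Atp11a, Atp10d, Atp9b, Atp8b2, Atp8a2 and Atp8a1. The first 3 of the embryonic order overlapped in their samples, as did Atp10d with Atp9b, Atp8b2 with Atp8a2 and Atp8a2 with Atp8a1, whereas every Atp9b value was above every Atp8b2 value. In adult, Atp11a stood above every other member in each sample and every Atp10d value was above every Atp8b2 value, while the other neighbours in the order overlapped.

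**Figure D1:**
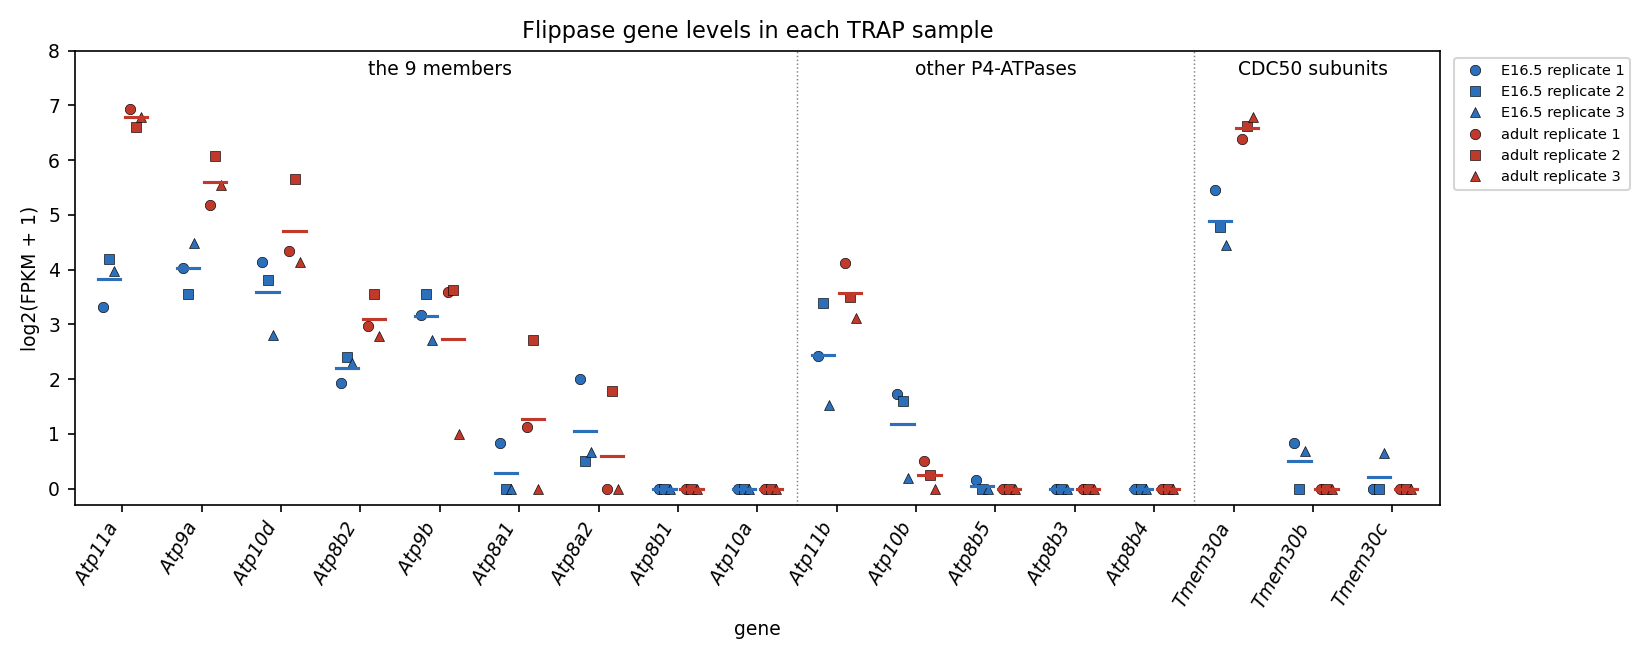
Levels of the 9 members, of 5 other P4-ATPases and of the 3 CDC50 subunits on a log2(FPKM + 1) axis, with 1 point per sample and a line at the mean of each age (n = 3). Atp11a, Atp9a and Atp8b2 among the members and Tmem30a among the subunits have all adult points above all E16.5 points, and Atp8b1 and Atp10a lie at 0 throughout.

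Some facts of the whole table touch these values. From the steps that single reads leave in low FPKM, 1 read on 1000 bases of transcript equalled 0.257, 0.113 and 0.324 FPKM in adult replicates 1 to 3 and 0.0639 to 0.0806 FPKM in the embryonic samples, so adult replicates 1 and 3 were the shallowest libraries. Of the 11601 genes tested, adult samples had 10.3% to 36.4% at 0 and embryonic samples 3.68% to 4.02%. The median log2 change over these genes was -0.86 (adult minus E16.5), and 27.2% of them had a change above 0. An exact 0 can be a failed estimate, since Ttr, the transthyretin gene that defines ChP epithelium, had no value above 0 in the embryo and 20922 to 31302 FPKM in adult. The other 11 epithelial markers were above 0 in all 6 samples. Of the 12 in all, limma called 3 higher in adult (Kl, Prlr and Ttr) and 3 lower (Foxj1, Otx2 and Kcne2). The call of Ttr rests on its embryonic values of 0.

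Atp11a, a flippase of the plasma membrane that moves phosphatidylserine and phosphatidylethanolamine, was the member whose difference between the ages passed the test. The changes of the members were not tested against each other. Adult replicates 1, 2 and 3 had 122, 96.9 and 109.6 FPKM, and E16.5 replicates 1, 2 and 3 had 9.02, 17.4 and 14.7 FPKM. Every adult sample therefore lay far above every E16.5 sample, and the adult samples were close to each other. The adult mean was 109.5 ± 12.6 FPKM and the embryonic mean 13.7 ± 4.25 FPKM (SD, n = 3 each), an 8.01-fold difference. On the log2(FPKM + 1) scale the change was 2.95 (95% interval 2.11 to 3.79, standard error 0.36). Its limma adjusted p was 0.00601 (Benjamini-Hochberg over the 11601 genes). The change lay 3.81 above the median of all genes tested. Among genes above 0 in every sample the median was -0.38, and the change lay 3.33 above it. By the read steps and the longest transcript of Atp11a the values rest on roughly 823 to 6278 reads per sample.

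Atp11a was the 1 of 7 tested members that limma called higher in adult, and 0 members were called lower (adjusted p under 0.05). Of all genes tested, 2.12% passed with a higher adult level and 8.83% with a lower one. Without adjustment, 2 members had a p under 0.05 with a higher adult level (Atp11a and Atp9a) and 0 with a higher E16.5 level, against 5.34% and 25.9% of all genes. In 3 members every adult sample was above every E16.5 sample (Atp11a, Atp9a and Atp8b2), where 7.39% of all genes tested were so placed, and in 0 members every adult sample was below, where 31.0% of all genes were. An exact two-sided permutation test of a single gene cannot go below 0.1 with 3 samples against 3, and it gave 0.1 for these 3 members. Without E16.5 replicate 2, Atp11a had a log2 change of 3.14 and a limma adjusted p of 0.0521, so that 0 members were then called.

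Antisense genes overlap exons of Atp11a on the opposite strand. Gm15350, an antisense gene with a row in the table, was at 0 in every adult sample, at 22.3 FPKM in E16.5 replicate 1, next to 0 in replicate 2 and at 2.81 FPKM in replicate 3. Of the 50-base stretches of Atp11a transcripts, 2.75% also occur in other genes. Whether FPKM were estimated with regard to strand is not stated in the sources used here.

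Atp9a acts on endosomes and in recycling to the plasma membrane and needs no CDC50 subunit. Adult replicates 1, 2 and 3 had 35.1, 66.5 and 45.6 FPKM, and the embryonic ones 15.3, 10.8 and 21.4 FPKM. The ages did not overlap, but adult replicate 2 lay well above the other adult samples. The means were 49.1 ± 15.99 FPKM and 15.8 ± 5.32 FPKM (SD, n = 3 each). Its log2 change of 1.57 (95% interval 0.57 to 2.57) had a limma adjusted p of 0.0565 and did not pass the threshold. It passed in 3 of 19 alternatives. These were median-ratio scaling (limma adjusted p = 0.0333), quantile normalization (0.0288) and a test of only genes above 0 in every sample (0.0479). Among those it failed were rescaling to the same sum (log2 change 0.78, limma adjusted p = 0.282) and a replicate block (0.107). With a sample left out the limma adjusted p was 0.0555 to 0.167.

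Atp9b, its close relative of the trans-Golgi network, had 10.998, 11.45 and 1.0047 FPKM in the adult samples and 8.03, 10.7 and 5.54 FPKM in the embryo. The ages overlapped, and the low adult mean came from replicate 3, whose value rests on roughly 16 reads. The log2 change was -0.40 (95% interval -2.36 to 1.56, limma adjusted p = 0.765), and it was 0.47 without adult replicate 3.

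Atp10d, the class in which glucosylceramide is the lipid moved, had 19.3, 49.5 and 16.5 FPKM in adult and 16.7, 13.0 and 5.99 FPKM in the embryo. Adult replicate 2 was again the highest, and adult replicate 3 lay just under E16.5 replicate 1. The log2 change of 1.12 (95% interval -0.27 to 2.51) did not pass the test (limma adjusted p = 0.236), and it was 0.65 without adult replicate 2. Atp10a, its relative that moves phosphatidylcholine, was listed at 0 in all 6 samples, where 3 reads would be worth 0.0367 to 0.186 FPKM.

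Atp8b2, which moves phosphatidylcholine at the plasma membrane, had 6.80, 10.8 and 5.90 FPKM in adult and 2.79, 4.27 and 3.90 FPKM in the embryo. All adult values were above all E16.5 values, with a gap of less than 2 FPKM between the nearest. The log2 change was 0.90 (95% interval -0.48 to 2.28, limma adjusted p = 0.330). Atp8b1, whose human counterpart is mutated in a familial intrahepatic cholestasis, was at 0 in every sample.

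Atp8a1 and Atp8a2 move phosphatidylserine, Atp8a1 in endosomes and the Golgi, and Atp8a2 is known chiefly from neurons and photoreceptors. Atp8a1 had 1.19, 5.53 and 0 FPKM in adult and 0.784, 0 and 0 FPKM in the embryo. Atp8a2 had 0, 2.46 and 0 FPKM in adult and 3.02, 0.417 and 0.584 FPKM in the embryo. Both were low and scattered, and a single sample held most of each gene's signal at each age. Their log2 changes were 1.001 (95% interval -0.82 to 2.82, limma adjusted p = 0.405) and -0.46 (95% interval -2.20 to 1.28, limma adjusted p = 0.696). Exons of Atp8a2 overlap those of Nupl1 on the same strand, and 14.7% of its 50-base stretches occur in other genes.

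**Figure D2:**
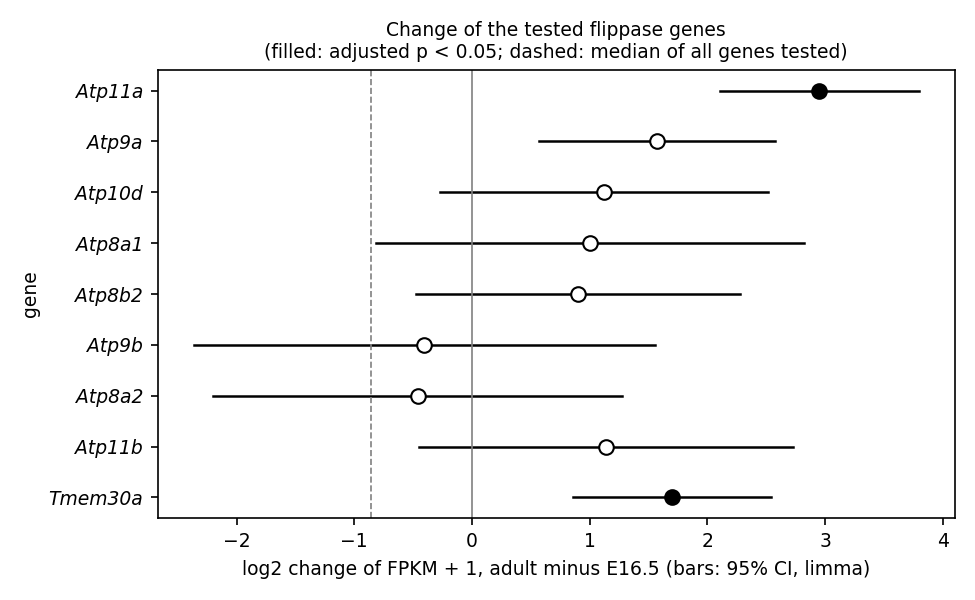
Log2 change (adult minus E16.5, on FPKM + 1) of each tested member, of Atp11b and of Tmem30a, with 95% limma intervals (n = 3 against 3). Only Atp11a (2.95) and Tmem30a (1.70) are filled, which marks an adjusted p under 0.05, and the dashed line is the median of all genes tested (-0.86).

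Markers of other cells were read beside these genes, since in bulk samples fewer cells of a type and less RNA per cell cannot be told apart. E16.5 replicate 1, with the highest Atp8a2, also had the highest sum over 10 neuronal and progenitor markers (range 30.7 to 120 FPKM in the embryo and 3.38 to 14.1 in adult), with Tubb3 at 36.2 FPKM against 0.623 and 0.134 in replicates 2 and 3. Sox2, the most abundant gene of that list, had 26.3, 25.3 and 26.4 FPKM in the 3 embryonic samples and so did not set replicate 1 apart. In adult, 5 of these 10 were at 0 in every sample (Dcx, Stmn2, Rbfox3, Neurod1 and Neurod6). Adult replicate 2 had the highest adult value of each member but Atp11a among those above 0. Mir6236 took 32.7% of its summed FPKM, against 51.0% and 51.7% in adult replicates 1 and 3 and 13.3% to 15.002% in the embryo. Of the endothelial markers, adult replicate 2 had Cldn5 at 9.48, Tie1 at 8.22 and Kdr at 7.75 FPKM. Its Kdr was below every E16.5 value (12.3 to 36.7 FPKM), and its Pecam1, Cdh5 and Flt1 were at 0.957, 0.357 and 0.445 FPKM. The endothelial list of 10 genes summed to 0.489 to 27.2 FPKM in adult and 12.7 to 40.9 in the embryo. Tek, Emcn, Plvap and Esam were at 0 in every adult sample. Over 10 mesenchymal markers the sum was 15.7 to 30.8 FPKM in adult and 65.9 to 76.5 in the embryo, and Pdgfra, a fibroblast receptor, was called lower in adult (limma adjusted p = 0.0296). Over 10 macrophage markers it was 0.0695 to 7.35 and 0.584 to 8.48 FPKM, with C1qa, C1qb, C1qc, Aif1, Ptprc and Cd68 at 0 in every adult sample. The 7 red blood cell markers in the table summed to 0 to 6.49 FPKM in adult and 54.1 to 324 in the embryo, and Hbb-bs and Hba-a2 were called lower in adult (limma adjusted p = 0.0430 and 0.00795). Over 8 markers of oligodendrocytes and astrocytes the sums were 4.65 to 73.0 and 7.50 to 18.4 FPKM, with Mbp at 58.7 FPKM in adult replicate 3. The neuronal, mesenchymal and red blood cell sums were thus lower in adult without overlap, and the other 3 overlapped between the ages. The part of other cells, and of the Mir6236 share, in the levels of the flippases was not tested.

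The other P4-ATPases named here were all lower than Atp11a in each adult sample. Atp11b, the endosomal relative, had 16.4, 10.3 and 7.70 FPKM in adult and 4.34, 9.44 and 1.89 FPKM in the embryo (log2 change 1.14, 95% interval -0.45 to 2.73, limma adjusted p = 0.289). Atp10b was at 0.418, 0.185 and 0 FPKM in adult and at 2.32, 2.02 and 0.152 FPKM in the embryo, a mean too low for the test. Atp8b5 was above 0 only in E16.5 replicate 1 (0.112 FPKM), and Atp8b3 and Atp8b4 were listed at 0 in all 6 samples.

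The CDC50 subunit of these complexes was also called. Tmem30a, which encodes the subunit used by most flippases, had 82.4, 97.1 and 109.8 FPKM in adult and 43.0, 26.5 and 20.8 FPKM in the embryo, again without overlap. Its means were 96.4 ± 13.7 and 30.1 ± 11.5 FPKM (SD, n = 3 each), and its log2 change was 1.70 (95% interval 0.86 to 2.54, standard error 0.36, limma adjusted p = 0.0307). The call was lost without any 1 of the E16.5 samples (adjusted p = 0.0608, 0.102 and 0.0891) and without adult replicate 1 (adjusted p = 0.0524), after rescaling to the same sum of FPKM (adjusted p = 0.120), with no intensity trend (adjusted p = 0.0668) and with a replicate block (adjusted p = 0.0659). Tmem30b and Tmem30c were at 0 in every adult sample and reached 0.776 and 0.575 FPKM in the embryo. MON2 and the DOPEY proteins, which are linked to the Atp9 branch in trafficking, had no gene called. Mon2 had 6.97 to 17.8 FPKM in adult and 9.77 to 11.2 FPKM in the embryo, and Dopey2 had 10.2 to 16.5 and 8.66 to 15.02 FPKM.

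Promoters of the 2 genes that were called together, Atp11a and Tmem30a, were read from RefSeq (GRCm38.p6, 250 bases before to 50 after the start). Matches to 4 motifs on either strand are in capitals: the GC box GGGCGG, an OTX motif TAATCC, a forkhead motif GTAAACA and an RFX motif GTTGCC, the last 3 being bound by families with members that are active in ChP or ciliated cells. Of the 32851 promoters in the table, 35.7%, 7.06%, 3.65% and 12.5% hold these motifs.
Atp11a promoter, chr8:12756766-12757065, plus strand: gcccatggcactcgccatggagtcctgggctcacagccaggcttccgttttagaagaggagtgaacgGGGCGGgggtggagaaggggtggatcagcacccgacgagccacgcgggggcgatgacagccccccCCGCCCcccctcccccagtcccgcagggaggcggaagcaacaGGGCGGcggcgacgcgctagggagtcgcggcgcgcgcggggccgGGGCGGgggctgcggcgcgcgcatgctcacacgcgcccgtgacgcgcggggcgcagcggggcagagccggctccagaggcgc
Tmem30a promoter, chr9:79793381-79793680, minus strand: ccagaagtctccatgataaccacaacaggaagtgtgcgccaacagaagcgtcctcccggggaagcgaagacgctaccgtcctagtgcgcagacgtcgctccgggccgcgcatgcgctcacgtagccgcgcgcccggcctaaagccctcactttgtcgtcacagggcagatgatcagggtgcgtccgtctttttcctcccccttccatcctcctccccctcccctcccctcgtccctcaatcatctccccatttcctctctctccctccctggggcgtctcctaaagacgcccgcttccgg

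Both are rich in G and C, at 76.0% and 63.0% against a median of 52.7% over all promoters, with 39 and 26 CG dinucleotides against a median of 7. The Atp11a window holds 4 GC boxes and the Tmem30a window none, and neither window holds the other 3 letter strings. Some promoters of members that were not called were also above the median of 52.7%, at 70.3% for Atp8a1 and 66.0% and 69.0% for Atp8b2. The 4 starts of Atp9a lay on both sides of it, at 65.7%, 88.7%, 47.3% and 54.0%. Of the 18 genes of flippases and CDC50 subunits, 11 have a promoter in the table.

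Shares within a sample do not move when a sample is rescaled. Atp11a made up 62.5%, 39.8% and 61.3% of the summed FPKM of the 9 members in the adult samples and 16.2%, 30.7% and 28.2% at E16.5, so that its lowest adult share was above its highest E16.5 share. Atp9a held 17.96% to 27.4% in adult and 19.1% to 41.1% at E16.5, and Atp10d held 9.26% to 20.4% and 11.5% to 30.0%, both with overlap. Atp9b held 0.562% to 5.63% in adult and 10.6% to 19.0% at E16.5, and Atp8b2 held 3.30% to 4.44% and 5.01% to 7.54%, both without overlap. After quantile normalization the mean shares of Atp8b2 were 4.20% and 4.33%. The FPKM of Atp9b themselves overlapped between the ages, with means of 7.82 and 8.10, while the sum by which they are divided was higher in every adult sample. The sum itself was 179 to 243 FPKM in adult and 52.1 to 56.6 FPKM in the embryo.

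**Figure D3:**
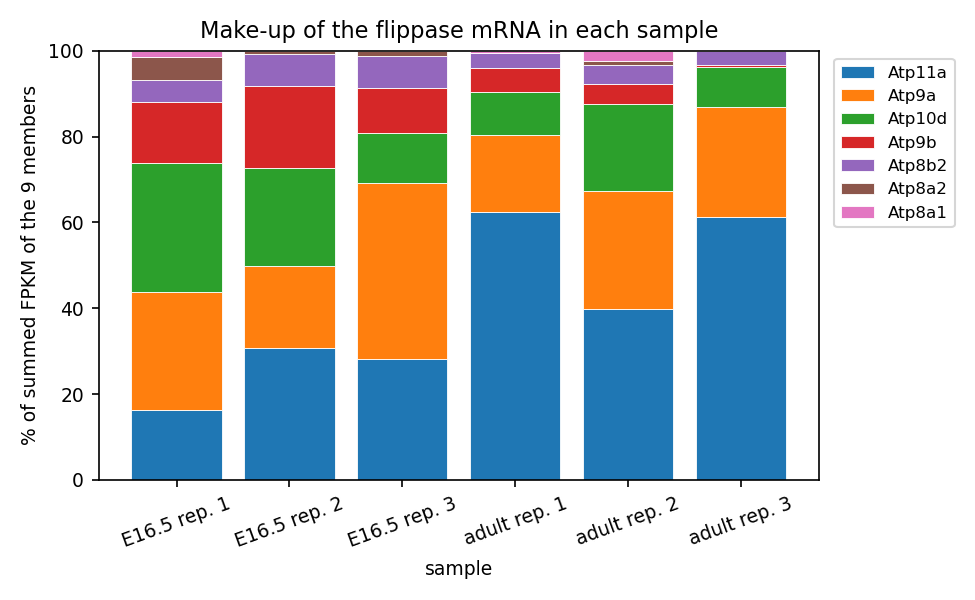
Share of each member in the summed FPKM of the 9 members, in percent, with 1 bar per sample. Atp11a takes 39.8% to 62.5% of the adult bars and 16.2% to 30.7% of the E16.5 bars, and Atp9b, whose own FPKM overlapped between the ages, takes 10.6% or more of the E16.5 bars and 5.63% or less of the adult bars.

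Ratios of 2 genes in the same sample were compared for 4 pairs that were above 0 throughout. The log2 ratio of Atp11a to Tmem30a was 0.57, -0.00 and -0.00 in adult and -2.25, -0.61 and -0.50 at E16.5. The ages did not overlap, and the means differed by 1.31 on the log2 scale (0.19 ± 0.33 against -1.12 ± 0.98, SD, n = 3 each), or by 0.74 without E16.5 replicate 1. The exact two-sided permutation p was 0.1, the smallest that 3 against 3 can give (0.2 adjusted over the 4 pairs). The ratios of Atp11a to Atp9a, of Atp11a to Atp10d and of Atp9a to Atp9b differed by 1.41, 1.85 and 2.28 and overlapped between the ages (exact permutation p = 0.2 each, adjusted 0.2). The last of these was 1.14 without adult replicate 3 and 1.11 after quantile normalization. None of the 4 could pass a threshold of 0.05 in this design. The pairs were chosen after the FPKM had been seen.

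**Figure D4:**
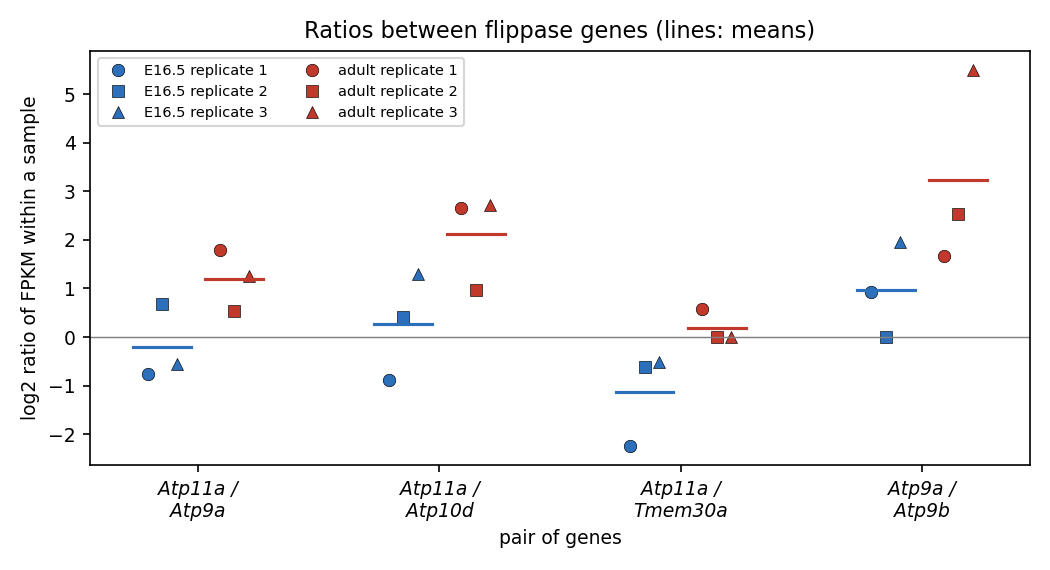
Log2 ratio of FPKM of 2 genes within each sample for 4 pairs, with 1 point per sample and a line at the mean of each age (n = 3). The adult points lie above the E16.5 points without overlap for Atp11a to Tmem30a, and the other 3 pairs overlap.

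Genes around flippase action were taken from 8 lists with 70 genes in all, of which 43 had a mean FPKM above 1. Of the 43, limma called 6 higher in adult and 0 lower, against 2.12% and 8.83% of all genes tested. Without adjustment, 10 and 6 had a p under 0.05. Their median log2 change was 0.23, beside -0.86 over all genes. Besides Tmem30a, the 6 were Nptn, Abca7, Etnk1, Gas6 and Mfge8.

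Scramblases and their partners had 12 of 24 genes tested, 1 of which was called. Nptn, which encodes neuroplastin, a partner of the scramblase Xkr8, had 89.8, 110.1 and 43.6 FPKM in adult and 16.5, 15.8 and 9.90 FPKM in the embryo (log2 change 2.38, standard error 0.46, limma adjusted p = 0.0234). The call of Nptn was lost without any 1 of the E16.5 samples (limma adjusted p = 0.0808, 0.0822 and 0.0797) and without adult replicate 1 (0.0587). Bsg, the other Xkr8 partner and the most abundant gene of the list, had 930 to 1202 FPKM in adult and 1352 to 1925 FPKM in the embryo (log2 change -0.56, adjusted p = 0.152). The median change of the list was -0.04.

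ABC transporters that carry lipids outward had 4 of 5 genes tested and 1 called. Abca7, an exporter of phospholipids, had 22.2, 9.96 and 5.51 FPKM in adult and 0.249, 0.277 and 0.318 FPKM in the embryo (log2 change 3.21, standard error 0.70, limma adjusted p = 0.0321). Its call was lost without any 1 of the E16.5 samples (limma adjusted p = 0.116, 0.114 and 0.104), without adult replicate 1 (0.0689), with a replicate block (0.0706) and with a pseudocount of 0.01 (0.0589). The adult samples of Abca7 were spread over a wide range, all far above the E16.5 samples. Abca1, which loads lipid onto apolipoproteins, had 63.6 to 80.1 FPKM in adult and 24.6 to 41.0 FPKM in the embryo (limma adjusted p = 0.0573). Abcc1, a transporter of several lipids and drugs, had 15.7 to 21.4 and 5.64 to 13.4 FPKM (limma adjusted p = 0.207).

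Enzymes of phospholipid synthesis had 13 of 14 genes tested and 1 called, with a median log2 change of -0.48. Etnk1, an ethanolamine kinase at the start of phosphatidylethanolamine synthesis, had 57.4, 44.3 and 58.4 FPKM in adult and 15.6, 9.58 and 8.79 FPKM in the embryo (log2 change 2.17, standard error 0.39, limma adjusted p = 0.0201). Leaving out any 1 of the E16.5 samples ended the call of Etnk1 (limma adjusted p = 0.0600, 0.0794 and 0.0723), as did a replicate block (0.0505). Pcyt1a, the rate-limiting enzyme of phosphatidylcholine synthesis, had 12.9 to 26.7 and 19.4 to 23.2 FPKM, with overlap (log2 change -0.28, limma adjusted p = 0.685). For glucosylceramide, the lipid of the Atp10d class, 3 genes were tested and 0 called. Gba2, a glucosylceramidase outside the lysosome, had 0 to 2.81 FPKM in adult and 8.80 to 16.2 FPKM in the embryo (log2 change -2.59, limma adjusted p = 0.0611).

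Proteins that recognise exposed phosphatidylserine had 5 of 12 genes tested and 2 called. Gas6, a bridging ligand between phosphatidylserine and the receptors Tyro3, Axl and Mertk, had 377, 433 and 417 FPKM in adult and 67.9, 102 and 77.7 FPKM in the embryo (log2 change 2.31, standard error 0.26, limma adjusted p = 0.00440). Mfge8, another bridging protein, had 142, 160 and 123 FPKM in adult and 43.5, 50.5 and 27.3 FPKM in the embryo (log2 change 1.82, standard error 0.33, limma adjusted p = 0.0198). Gas6 passed in all 19 alternatives, whereas Mfge8 did not pass without any 1 of the E16.5 samples (limma adjusted p = 0.0729, 0.0632 and 0.0665), after rescaling to the same sum (0.0734) or with no intensity trend (0.0515). The samples of both genes were well apart between the ages. Of the receptors, named here after their values were seen, Tyro3 had 6.04 to 18.6 FPKM in adult and 7.83 to 12.9 FPKM in the embryo, with overlap, while Axl had 1.06, 10.2 and 0 FPKM in adult and 0.886 to 2.52 in the embryo and Mertk 3.96, 7.33 and 0 FPKM in adult and 0 to 3.28 in the embryo.

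Flippases were set beside the 22 other P-type ATPases of the table, which pump cations or belong to the Atp13a branch. Of 17 tested, limma called 7 higher and 1 lower in adult, against 2.12% and 8.83% of all genes tested. Their median log2 change was 1.43, beside 1.001 for the 7 tested members and -0.86 over all genes. Among those named here, the log2 change was 2.28 for Atp13a3 (limma adjusted p = 0.0243), 2.05 for Atp2b3 (adjusted p = 0.00464) and -2.63 for Atp13a2 (adjusted p = 0.0370). The change of Atp11a lay above each of these. Whether flippases differ from the pumps was not tested.

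Genes with the pattern most like each member were named by Pearson's r of log2(FPKM + 1) over the 6 samples. For Atp11a these were Tex2, Elovl7 and Klf9 (each at r = 0.996 or 0.997). For Atp9a they were Tspan33 (0.990), Arhgef5 and C1galt1c1, for Atp8b2 Lman2 (0.984), Myof and Dnajc18, and for Atp9b Srf (0.996), Mbtps2 and Lrrc47. For Atp10d they were D3Ertd751e (0.994), Txndc15 and Otud7b (0.958). For Atp8a1 they were Blm (0.991) and Dtx1, and for Atp8a2 Diap3 (0.995), Rnaset2b and Fmn2. The 6 points share their libraries and depth, so these values are a description.

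**Figure D5:**
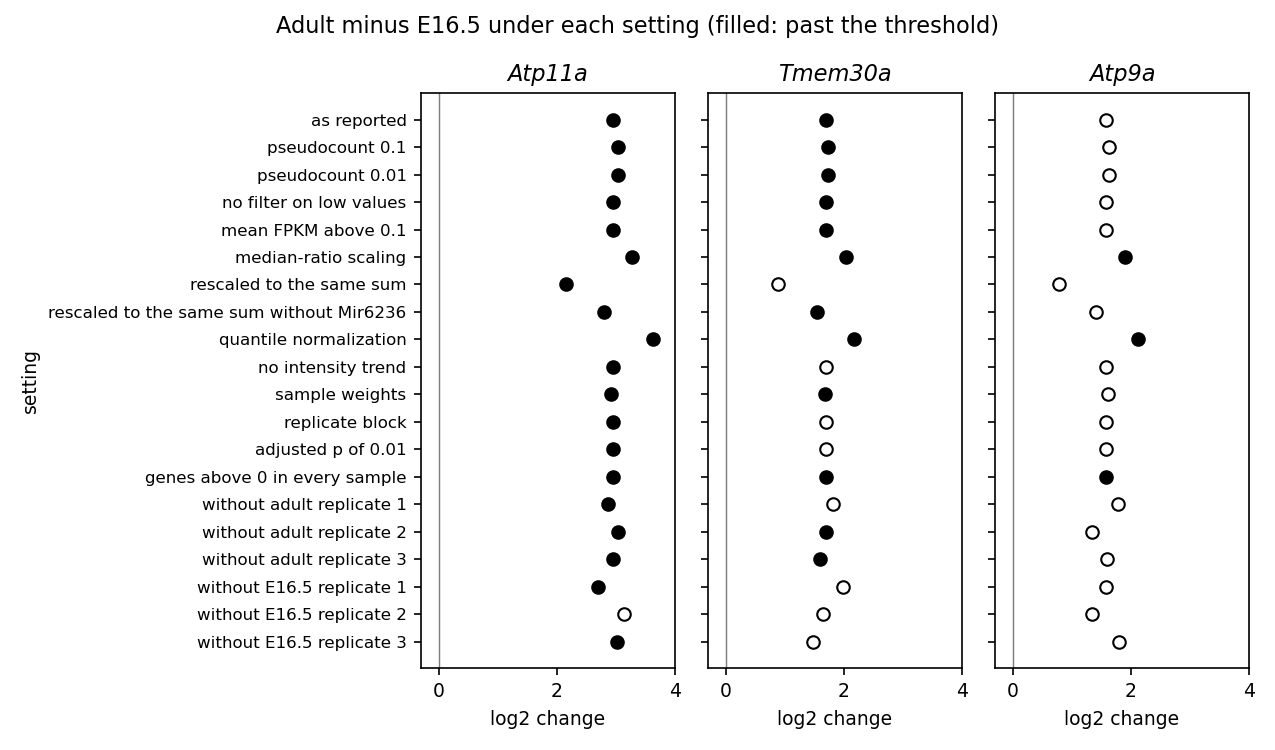
Log2 change (adult minus E16.5) of Atp11a, Tmem30a and Atp9a as reported and under 19 other settings, filled where the adjusted p passed the threshold. Atp11a is filled in all but the setting without E16.5 replicate 2, and every point lies to the right of 0.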

How the data were processed

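TRAP-seq libraries of ChP were analysed from 3 adult and 3 E16.5 samples, grouped by their titles. The authors aligned 50-base single-end reads to mm10 with STAR (2.4.0 in the submitters' processing notes) and calculated gene FPKM with Cuffquant of Cufflinks, and these deposited FPKM were used as they stand. The annotation given to Cuffquant is not given in the sources used here, and read counts were not analysed here. The 11601 genes whose FPKM averaged above 1 entered a limma fit (limma 3.58.1, R 4.3.3) of log2(FPKM + 1). The fit had an intensity trend, no covariates and Benjamini-Hochberg adjustment at 0.05. It was tried on simulated data with normal noise, without zeros or a general shift between the ages. That trial therefore does not cover those features of these data. The study's own test ran on counts, so another test was needed for FPKM. Fold changes of low genes are understated on this scale. The genes, lists and naming rule (all members, other P4-ATPases and CDC50 subunits, called and most abundant genes of related lists, the 3 most alike tested genes) were chosen with earlier results of these data known, and not every gene it takes is named, since some are not reported here. Motifs and pair ratios were chosen after the FPKM were seen. Read steps were taken from 2523 protein-coding genes with 1 transcript of over 1000 bases (length minus 200) and rest on 35 to 63 low values per library, of which 65.1% to 82.1% lay within 0.1 of a whole read. Reads carry no molecular identifiers here, so reads and the level of 3 reads cover counting error only. Positions come from GENCODE, promoters from RefSeq. Single values were compared by exact permutation in scipy 1.17.1.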

Additional observations from a re-analysis of the deposited data

How the results depend on the processing

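The call of Atp11a was kept in 18 of 19 alternatives, with log2 changes of 2.15 to 3.64, and was lost without E16.5 replicate 2 (adjusted p = 0.0521). Members called higher in adult numbered 2 after median-ratio scaling, after quantile normalization and among genes above 0 in every sample (the last chosen after seeing the data), and 0 to 1 with a sample left out. None was called higher at E16.5 in any alternative. Related genes called higher in adult numbered 10 after quantile normalization, 1 at an adjusted p of 0.01, and 1 to 8 with a sample left out. Those called higher at E16.5 numbered 4 after rescaling to the same sum, 1 when Mir6236 was left out of that sum, 1 without an intensity trend, and 0 to 3 with a sample left out. No label pairs the samples, and the deviations of same-numbered samples from their age means correlated at only 0.000895, 0.0439 and 0.0150. With a replicate block, Atp11a had a log2 change of 2.95 and 3 related genes were called higher in adult. Over all genes the block gave 112 calls with a higher adult level and 452 with a lower one. The change of Atp9b turned to 0.97 after quantile normalization, 0.065 with sample weights and 0.47 without adult replicate 3, in a range of -0.85 to 0.47 with a sample left out. The E16.5 share of Atp8b2 was 4.33% after quantile normalization, against 6.68%, beside an adult share of 4.20%, against 3.74%. The causes were not tested.

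The counts over all genes moved with the scaling. With the deposited FPKM, 246 genes were called higher and 1024 lower in adult (19.4% of calls higher in adult), 34.7% after median-ratio scaling, 3.59% after rescaling to the same sum and 50.9% after quantile normalization, with median log2 changes of -0.56, -1.46 and -0.15. Without E16.5 replicates 1, 2 and 3 they were 32 and 25, 27 and 16, and 47 and 65. Without adult replicates 1, 2 and 3 they were 146 and 541, 219 and 1704, and 357 and 1364. At an adjusted p of 0.01 they were 56 and 132.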
